A study of Rattus norvegicus with 12 samples.

Results

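The extended miR-15/16 family was examined in aorta, the main artery that carries blood from the heart. Its 8 mature miRNAs were taken by name from a deposited table of 641: rno-miR-15b-5p, rno-miR-16-5p, rno-miR-195-5p, rno-miR-497-5p, rno-miR-322-5p, rno-miR-322-3p, rno-miR-503-5p and rno-miR-503-3p. All 8 were listed, and the prefix rno- (rat) is left out from here on. The tissue came from female rats of the SHR strain (spontaneously hypertensive rat, an inbred strain with high blood pressure). There were 6 saline samples (the controls) and 6 with the treatment EWH, a term that the labels do not spell out. Both groups share strain, sex and tissue. Age, dose and duration are not stated, while the title of the series speaks of peptides from egg white and of lower blood pressure. The comparison open to these samples is of EWH with control, for each miRNA.

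A miRNA finds its targets mostly through its seed, the bases near its 5′ end that pair with a messenger RNA. MiRNAs of the miR-15/16 family are known to repress cyclins and other genes of cell-cycle entry, and also the survival gene Bcl2, so they are known as brakes on proliferation. MiR-195 is known from the exit of heart muscle cells from the cell cycle after birth. MiR-322 is the rodent counterpart of human miR-424, and the pair of miR-322 and miR-503 is known from endothelial growth and from muscle differentiation. A hairpin gives a 5p and a 3p strand, of which one is usually retained as the guide.

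The mature sequences are shown because the seed defines the family. They are RefSeq's, with bases 2 to 8 in capitals (all 8 members matched in RefSeq's rat table for the assembly GRCr8, 5′ to 3′).
miR-15b-5p: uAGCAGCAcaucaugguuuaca
miR-16-5p: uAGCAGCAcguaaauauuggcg
miR-195-5p: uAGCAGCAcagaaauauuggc
miR-497-5p: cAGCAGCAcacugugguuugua
miR-322-5p: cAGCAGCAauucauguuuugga
miR-503-5p: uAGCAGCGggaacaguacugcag
miR-322-3p: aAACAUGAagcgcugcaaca
miR-503-3p: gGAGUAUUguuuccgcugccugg
The seed AGCAGCA is common to 5 of these strands, all of them 5p, and miR-503-5p has AGCAGCG. The 3p strands of miR-322 and miR-503 have seeds of their own, AACAUGA and GAGUAUU. No other listed miRNA with a RefSeq sequence carried the seed of a member. MiR-15a-5p is listed but had no sequence in that RefSeq table, so its seed was not compared and it is not counted here. Outside the seed the 5p strands differ. MiR-16-5p and miR-195-5p were identical at 19 of 21 compared positions, while miR-16-5p and miR-497-5p were identical at 11 of 22. MiR-16-5p and miR-195-5p share their first 9 bases.

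RefSeq's gene order placed the hairpins in 3 neighbourhoods. Mir15b and Mir16 are adjacent within Smc4, a condensin subunit gene, and Mir497 and Mir195 are adjacent to each other on chromosome 10. Mir503 and Mir322 lie side by side on the X chromosome, inside the long noncoding RNA gene LOC102550366, after Mir450a1, Mir450b-1, Mir542 and Mir351. The hairpins of the X-linked pair are shown because their arms take up much of what follows, with both mature arms in capitals (5p first).
Mir322: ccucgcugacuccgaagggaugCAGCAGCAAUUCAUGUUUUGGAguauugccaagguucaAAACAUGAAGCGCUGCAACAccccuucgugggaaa
Mir503: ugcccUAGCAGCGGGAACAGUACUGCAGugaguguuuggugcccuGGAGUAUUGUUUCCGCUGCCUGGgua

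Levels are in rpm, the reads per 1000000 of a library total of 23887799 to 24772944 reads, at which 1 read was worth 0.0404 to 0.0419 rpm. No molecular identifiers are mentioned, so reads are not independent molecules. The labels do not state whether each sample was its own animal. P-values therefore rest on the spread among samples, and that spread may be technical. Among all 303 tested miRNAs, EWH 3 and EWH 4 stood apart on the first principal component, at 11.97 and 16.2 against −7.94 to 4.94 for the others. Control 1 stood apart in markers of other cells. Its endothelial list, the arms of miR-126a, summed to 12305 rpm against 3290 to 6913 rpm in the other 11 libraries. Its brown fat list summed to 1631 rpm against 121 to 610.2 rpm. The defining smooth muscle miRNAs miR-143 and miR-145 summed to 347013 to 426858 rpm in control and 331968 to 428677 rpm in EWH, so the tissue label fitted its markers.

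The common-seed strands were led by miR-16-5p and miR-195-5p. MiR-16-5p ranked 77 of 641 by mean level, at 190 rpm over the 12 libraries. MiR-195-5p (137 rpm), ranked 83, lay below miR-16-5p in 12 of 12 libraries, although the ranges of the 2 touch. MiR-497-5p averaged 36.8 rpm and miR-15b-5p 3.96 rpm, each separate in range from the miRNA above it among the 5p strands. The ranges of miR-503-5p (3.10 rpm) and miR-322-5p (2.83 rpm) overlapped, and so did those of miR-15b-5p and miR-503-5p. MiR-15b-5p was above miR-503-5p in 10 of 12 libraries, and miR-503-5p above miR-322-5p in 4 of 12. No test was made of this order. All are strands of 21 to 23 bases, and the order is one of reads. MiR-15a, the other classical partner of miR-16, was at 8 reads or fewer in each library in its 5p strand (chosen after its values were seen).

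Summed over the 5 strands with seed AGCAGCA, the family gave 383 ± 35.7 rpm across controls and 357 ± 48.3 rpm across EWH libraries (SD, n = 6 each). That was 0.0491% ± 0.0051 and 0.0450% ± 0.0066 of the reads in listed miRNAs. MiR-16-5p made up 52.1% ± 3.55 of the sum in control and 50.7% ± 3.66 in EWH, and miR-195-5p 35.6% ± 2.68 and 38.4% ± 3.01. MiR-497-5p made up 10.3% ± 1.04 and 9.35% ± 1.79, miR-15b-5p 1.21% ± 0.35 and 0.92% ± 0.24, and miR-322-5p 0.82% ± 0.37 and 0.67% ± 0.20 (SD, n = 6 each). In each of the 12 libraries miR-16-5p and miR-195-5p together held most of the reads with this seed.

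**Figure D1:**
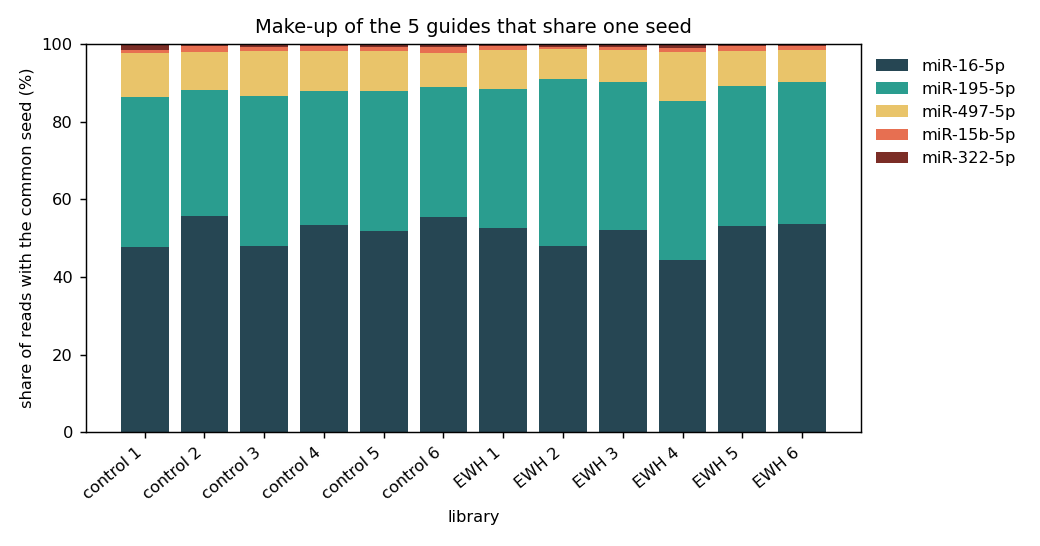
Share, in percent, of each of the 5 strands with the common seed in their summed reads, 1 bar per library. MiR-16-5p (44.5% to 55.8%) and miR-195-5p (32.3% to 43.1%) take most of each bar in both groups.

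Between the groups, limma called none of the 8 members (adjusted p under 0.05, Benjamini-Hochberg over all tested miRNAs), and 0% of the 303 tested miRNAs. None had an unadjusted limma p under 0.05 either, where 23.1% of the tested miRNAs did. On recovered whole reads edgeR's quasi-likelihood test called 0 of the 8 against 13.2% of the tested, and DESeq2 0 of the 8 against 20.8%, both with Benjamini-Hochberg adjustment. At an unadjusted p under 0.05 edgeR had 0 members (26.1% of the tested) and DESeq2 had 2 (29%), miR-15b-5p at 0.049 and miR-503-5p at 0.040. The fitted difference was below 0 in all 8 members, against 60.1% of the tested miRNAs, with a median of −0.20 against −0.06 on the log2(rpm + 1) scale. MiR-195-5p, at −0.00014, was above 0 under median-of-ratios scaling, edgeR and DESeq2. Without control 1, 5 of the 8 were below 0 against 52.5% of the tested miRNAs, and the member median was −0.10 against −0.04. The 2 groups overlapped for all 8 members, as they did for all but 1.65% of the tested miRNAs.

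Of the Smc4 pair, miR-16-5p, a general guide of the family, lay between 179 and 214 rpm in control (median 199) and between 134 and 219 rpm in EWH (median 183). EWH 2 was the lowest library and EWH 5 the highest, so EWH spanned more than the whole control range. The means were 199 ± 12 and 181 ± 28.1 rpm (SD, n = 6 each), and the difference was −0.15 on the log2(rpm + 1) scale (SE 0.11, 95% interval −0.40 to 0.10; limma adjusted p = 0.478, Benjamini-Hochberg). It was −0.065 without EWH 2 and −0.10 with edgeR. Over the 12 libraries its coefficient of variation was 11.9%, rank 24 from the lowest among 303 tested miRNAs, whose median was 28.5%. MiR-16 is also abundant in red blood cells. Their markers, the miR-451, miR-144 and miR-486 arms, summed to 80.4 to 364 rpm in control and 119 to 385 rpm in EWH, and their part in its values was not tested. Control 1, lowest in these markers, held the highest control value of miR-16-5p, while EWH 5, highest in them, held the highest value of all 12 libraries. In aorta homogenate, fewer cells of a type and less RNA per cell cannot be told apart.

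MiR-15b-5p, processed from the same intron cluster, was far scarcer than its neighbour. It lay between 3.70 and 6.21 rpm in control (median 4.11) and between 1.57 and 4.53 rpm in EWH (median 3.67). Controls 2 and 6 were above each EWH library, and EWH 2, 3 and 6 were below each control. The difference was −0.38 (SE 0.20, 95% interval −0.81 to 0.04; limma adjusted p = 0.258, Benjamini-Hochberg), and 5 of 6 EWH libraries lay below the control median. Without EWH 2 the difference was −0.24. These values rest on 39 to 152 reads per library. Its 3p strand, miR-15b-3p, was nearly as frequent, at 2.43 to 5.80 rpm in control and 1.09 to 4.32 rpm in EWH, with a difference of −0.41 (SE 0.23; limma adjusted p = 0.321, Benjamini-Hochberg) and of −0.26 without EWH 2. Control 6 was highest and EWH 2 lowest in both strands. The 3p strand of miR-16 had 18 reads or fewer in each library and was not tested.

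MiR-195-5p, known from growth arrest of heart muscle cells, had the smallest difference of the 8. It lay between 114 and 173 rpm in control (median 135) and between 117 and 164 rpm in EWH (median 135), so all 6 EWH libraries fell within the control range. Control 1 set the upper end, and EWH 4 (164 rpm) and EWH 5 (148 rpm) lay above the next control at 144 rpm. The difference was −0.00014 (SE 0.13, 95% interval −0.27 to 0.27; limma adjusted p = 0.999, Benjamini-Hochberg). Its 3p strand was abundant too, at 58.6 to 117 rpm in control and 63.6 to 99.3 rpm in EWH (difference −0.03, SE 0.18, limma adjusted p = 0.932, Benjamini-Hochberg). Control 1 was the highest library in both strands.

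MiR-497-5p, its neighbour with the same seed, lay between 31.8 and 50.2 rpm in control (median 39.1) and between 21.3 and 50.5 rpm in EWH (median 31.8). EWH 2, 3 and 6 were below each control, while EWH 4 was the highest of all libraries. The difference was −0.26 (SE 0.19, 95% interval −0.67 to 0.15; limma adjusted p = 0.457, Benjamini-Hochberg), and −0.14 without EWH 2. The 3p strand of miR-497 had 4 reads or fewer in each library, so the 2 neighbouring hairpins differed in how much 3p strand was read.

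Ratios of reads within a library do not depend on that library's scaling, and 3 were compared between neighbours. The tests used log2 ratios with 1 rpm added to each level, which depend on scaling where levels are low. Reads of miR-195-5p per read of miR-497-5p were narrow in control, at 3.29 to 3.79 (median 3.41), and wider in EWH, at 3.24 to 5.65 (median 4.14). EWH 2, 3, 5 and 6 lay above each control and EWH 4 below each. Its mean on the log2 scale was 1.76 ± 0.07 across controls and 2.02 ± 0.27 across EWH libraries (SD, n = 6 each; two-sided exact permutation p = 0.039 over 924 splits, Benjamini-Hochberg adjusted p = 0.117 over the 3 ratios). Without EWH 4 the exact permutation test gave adjusted p = 0.026 (Benjamini-Hochberg), and without EWH 2 it gave 0.234.

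Reads of miR-16-5p per read of miR-15b-5p were 32.4 to 58.0 in control (median 45.3) and 43.6 to 85.1 in EWH (median 52.2). The groups overlapped (two-sided exact permutation p = 0.149, Benjamini-Hochberg adjusted p = 0.224). The log2 difference was 0.23, and it was 0.34 or 0.06 with 0.1 or 5 rpm added in place of 1 rpm. For miR-322-5p to miR-503-5p the ratio was 0.561 to 1.35 in control (median 0.963) and 0.586 to 1.54 in EWH (median 1.28), again with overlap (two-sided exact permutation p = 0.268, and 0.268 after Benjamini-Hochberg adjustment). The log2 difference of this ratio was 0.25, and it was 0.30 or 0.15 with 0.1 or 5 rpm added.

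**Figure D2:**
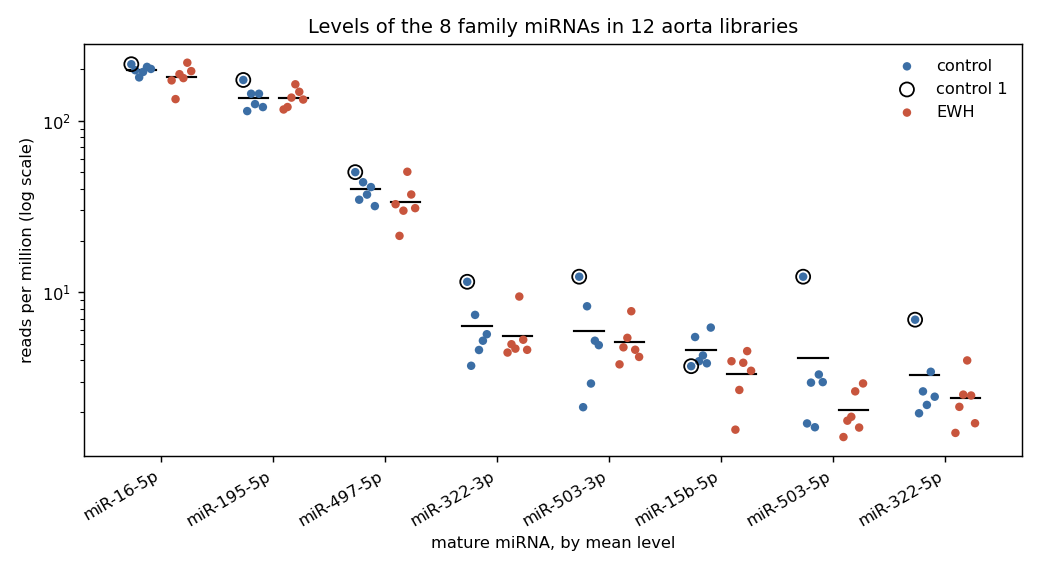
Level of each of the 8 family miRNAs in rpm (log axis), 1 point per library, with group means as bars and control 1 ringed. The groups overlap for all 8, and control 1 is the highest library for both arms of miR-322 and miR-503.

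The X-linked miRNAs were scarce, and one control library weighed on all 4. MiR-322-5p, the strand that carries the common seed, lay between 1.96 and 6.91 rpm in control (median 2.54) and between 1.51 and 3.99 rpm in EWH (median 2.32). Control 1 read 6.91 rpm and the next control 3.43 rpm. The difference was −0.28 (SE 0.25, 95% interval −0.81 to 0.26; limma adjusted p = 0.549, Benjamini-Hochberg), and −0.08 without control 1 and −0.45 without EWH 3 and 4 together.

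MiR-503-5p, whose seed ends in G in place of A, lay between 1.63 and 12.3 rpm in control (median 2.97) and between 1.43 and 2.93 rpm in EWH (median 1.82). Control 1, at 12.3 rpm, was far above the next control at 3.30 rpm, and all 6 EWH libraries lay below the control median. The means were 4.15 ± 4.06 and 2.04 ± 0.60 rpm (SD, n = 6 each), and without control 1 the control mean was 2.52 ± 0.79 rpm. The difference, the largest among the 8 members, was −0.53 (SE 0.34, 95% interval −1.27 to 0.22; limma adjusted p = 0.398, Benjamini-Hochberg), and −0.20 without control 1. With edgeR and with DESeq2 on recovered reads it was −0.97 on the log2 scale. Both of these fits include control 1, and neither was repeated without it. EWH values rest on 35 to 70 reads.

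The 3p strands of both hairpins were read more often than the 5p strands. MiR-322-3p lay between 3.72 and 11.5 rpm in control (median 5.44) and between 4.44 and 9.43 rpm in EWH (median 4.82). Control 1 and EWH 4 were the highest libraries of their groups. All 6 EWH libraries fell within the control range, but EWH 4 lay above the next control at 7.37 rpm. The miR-322-3p difference was −0.13 (SE 0.24; limma adjusted p = 0.790, Benjamini-Hochberg), 0.04 without control 1 and −0.27 without EWH 4. MiR-503-3p lay between 2.13 and 12.3 rpm in control (median 5.05) and between 3.79 and 7.74 rpm in EWH (median 4.69). Again all EWH libraries fell within the control range. Its difference was −0.05 (SE 0.32; limma adjusted p = 0.932, Benjamini-Hochberg) and 0.17 without control 1.

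Arm use was compared over the 67 hairpins whose arms were both tested, 4 of them from the family. The 3p strand had the higher mean in 24 of the 67 (35.8%), among them miR-322 and miR-503. For miR-322 the 5p strand gave 0.358 to 0.659 reads per 3p read in control (median 0.503) and 0.339 to 0.539 in EWH (median 0.427), below 1 in each library. For miR-503 it gave 0.358 to 1 in control (median 0.622) and 0.340 to 0.70 in EWH (median 0.362). Control 1 had equal reads of both arms, control 3 was the only control in the low range of EWH 1 to 5, and EWH 6 was the only EWH library outside it. The log2 5p to 3p ratio of miR-503 had a fitted difference of −0.47 (SE 0.19, 95% interval −0.89 to −0.06). This missed the threshold over the 67 hairpins (limma adjusted p = 0.194, Benjamini-Hochberg), of which 0% passed, and its unadjusted p of 0.026 was one of 13 under 0.05 (19.4%). Without control 1 the difference was −0.37.

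The other family hairpins had smaller differences. The difference in the log2 arm ratio was −0.15 for miR-322 (SE 0.13, 95% interval −0.43 to 0.13), 0.02 for miR-15b (SE 0.13, 95% interval −0.25 to 0.30) and 0.03 for miR-195 (SE 0.14, 95% interval −0.26 to 0.32). Limma adjusted p values were 0.591, 0.910 and 0.910 (Benjamini-Hochberg). The miR-322 difference was −0.09 without control 5 and −0.23 without control 3. MiR-195 kept its 5p strand ahead in 12 of 12 libraries and miR-15b in 11 of 12.

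**Figure D3:**
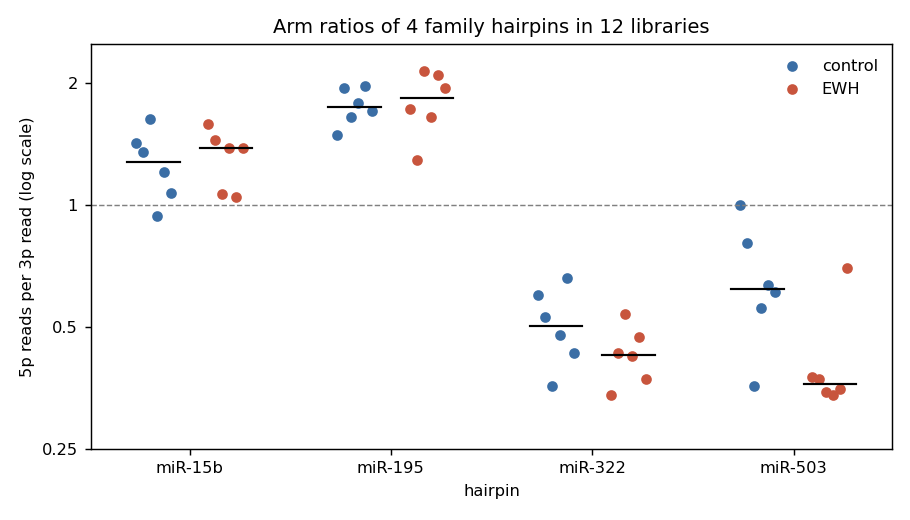
Reads of the 5p strand per read of the 3p strand (log axis) for the 4 family hairpins with both arms tested, 1 point per library, with group medians as bars and equality dashed. MiR-322 lies below 1 in each library, and for miR-503 the EWH median is 0.362 against 0.622 in control.

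The rest of the X-linked cluster was read from 8 listed arms of miR-351, miR-542, miR-450a and miR-450b, of which 5 were tested. None passed limma after Benjamini-Hochberg adjustment, and 3 of the 5 had a fitted difference below 0, with a median of −0.03. MiR-351-5p, the strand nearest to the pair in gene order among those tested, lay between 15.4 and 46.2 rpm in control and between 19.4 and 43.7 rpm in EWH (difference −0.03, SE 0.27, and 0.01 under median-of-ratios scaling; limma adjusted p = 0.956, Benjamini-Hochberg). MiR-450a-5p was the most abundant of the cluster, at 68.6 to 251 rpm in control and 46.5 to 132 rpm in EWH. The highest of these was control 1, and the next control stood at 99.3 rpm. MiR-450b-5p ranged from 9.03 to 91.5 rpm with no separation by group. It is identical to miR-450a-5p at 20 of 21 compared positions, and whether reads of these 2 were divided unevenly was not tested. MiR-542-3p was at 2.24 to 5.36 rpm in control and 1.91 to 4.57 rpm in EWH, and miR-450b-3p at 1.5 to 5.36 and 2.40 to 5.27 rpm.

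**Figure D4:**
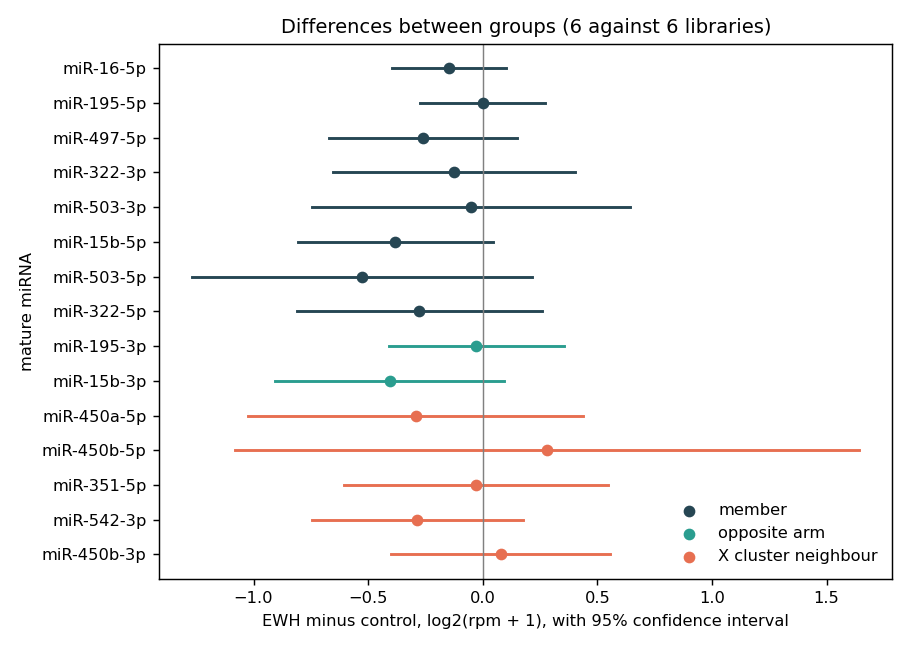
Fitted difference, EWH minus control, on the log2(rpm + 1) scale with its 95% confidence interval, for the 8 members, the 2 tested opposite arms and the 5 tested X-linked neighbours. Each interval includes 0.

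Across libraries the members fell into different profiles. Pearson's r of log2(rpm + 1) over the 12 libraries was 0.72 between miR-15b-5p and miR-16-5p, 0.74 between miR-195-5p and miR-497-5p and 0.92 between miR-322-3p and miR-503-3p. It was −0.07 between miR-15b-5p and miR-195-5p and −0.01 between miR-15b-5p and miR-322-3p. For miR-195-5p and the X-linked strands it was 0.85 with miR-322-5p, 0.85 with miR-322-3p, 0.84 with miR-503-3p and 0.68 with miR-503-5p (0.79, 0.76, 0.75 and 0.45 without control 1). These values describe 12 libraries of 2 groups that share a per-million scale, and no test was made of them.

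The miRNAs most like each member were found among the 303 tested. For miR-322-3p and miR-503-3p the first was miR-351-5p, at r = 0.94 for each (0.92 and 0.91 without control 1). MiR-195-5p was most like miR-450b-3p (0.91) and miR-351-5p (0.88), both from the X-linked cluster, and then miR-26a-5p (0.88). MiR-15b-5p was most like its own 3p strand (0.90), then miR-339-5p (0.86) and miR-29b-3p (0.85). MiR-16-5p was most like miR-155-5p (0.84), miR-191a-5p (0.82) and miR-221-3p (0.75), and miR-497-5p most like miR-210-3p (0.87), miR-374-5p (0.80) and miR-872-3p (0.79).

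The endothelial miRNA miR-126a was among the 3 most like miRNAs of 2 X-linked strands. Its 3p strand had r = 0.93 with miR-503-3p (0.90 without control 1). With miR-322-5p, r was 0.88 for its 5p and 0.88 for its 3p strand, and 0.73 and 0.68 without control 1. MiR-503-5p was most like miR-30c-1-3p (0.95), miR-30e-3p (0.92) and miR-224-5p (0.91), which were 0.79, 0.54 and 0.61 without control 1. The endothelial list summed to 3290 to 12305 rpm in control and 4264 to 6913 rpm in EWH. Control 1 was the highest library and control 2 the lowest in this list, in miR-322-3p, in miR-503-3p and in miR-351-5p. In miR-322-5p and miR-503-5p control 1 was also highest, but EWH 1 was lowest, at 1.51 and 1.43 rpm. The part of endothelial content in the X-linked values was not tested.

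**Figure D5:**
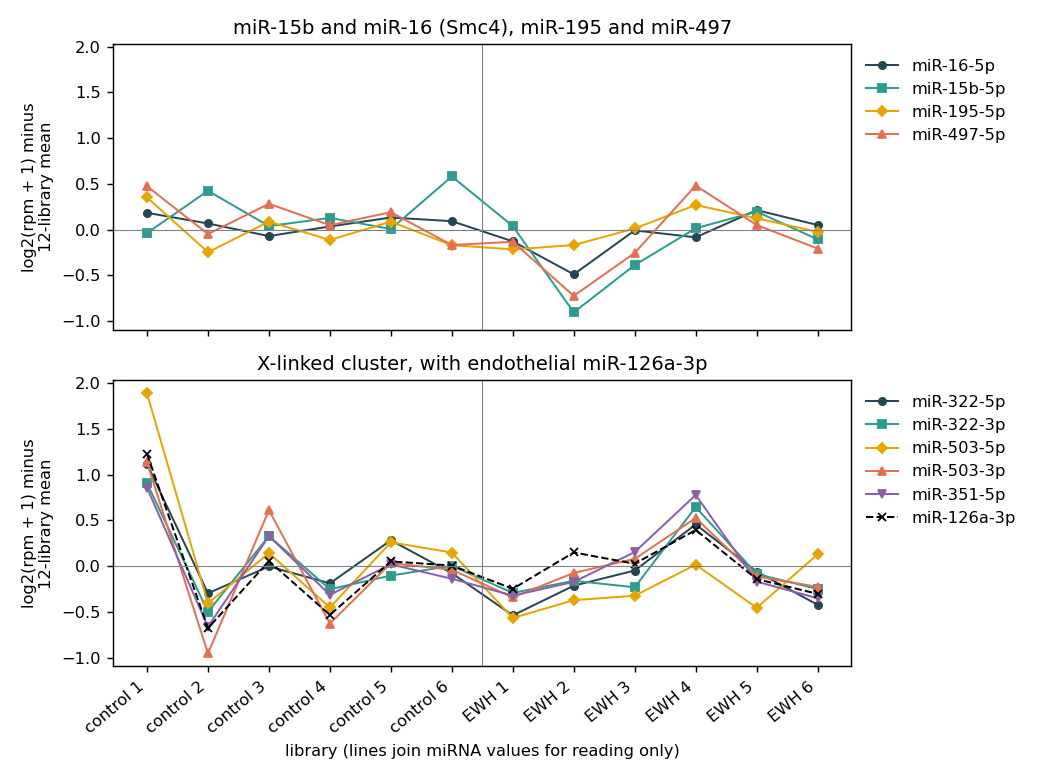
Value of each miRNA in each library as log2(rpm + 1) minus its 12-library mean, for miR-16-5p, miR-15b-5p, miR-195-5p and miR-497-5p (top) and for the X-linked strands with miR-126a-3p dashed (bottom). EWH 2 is low in miR-16-5p, miR-15b-5p and miR-497-5p, and control 1 is high in the X-linked strands and in miR-126a-3p.

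Markers of other cells were read in the same libraries. Leukocyte miRNAs summed to 87.4 to 231 rpm in control and 103 to 185 rpm in EWH, and skeletal and cardiac muscle miRNAs to 429 to 1368 and 714 to 1439 rpm. Epithelial miRNAs summed to 60.5 to 718 rpm in control and 75.5 to 196 rpm in EWH. Neuron and glia miRNAs were at 81.5 to 191 rpm in control and 118 to 971 rpm in EWH, highest in EWH 4. Brown fat miRNAs summed to 121 to 1631 and 135 to 447 rpm, and the hepatocyte miRNA miR-122 to 37.4 to 1006 and 125 to 801 rpm. No list had an arm at 0 in all libraries, and their part in the family's values was not tested.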

How the data were processed

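Small RNA of 12 aorta samples was sequenced. Per the labels' protocols, Trizol was used to extract the RNA, and inserts of 15 to 35 nt were kept after adaptor ligation and RT-PCR. Per the submitters' processing notes the build was rn6, and neither aligner, counter, annotation nor strand setting is stated. The authors deposited values in RPM (reads per 1000000 of a library total; 641 miRNAs). The table bears the name TPM but showed no length term, and 100% of its values were whole reads within 0.01 read. The members and lists were chosen with earlier results of these data known.

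A miRNA was tested where 6 or more of the 12 libraries reached 1 rpm (303, all 8 members among them). Values were log2(rpm + 1), a scale that understates changes of low miRNAs. The test was limma 3.58.1 with a variance trend, two-sided, under R 4.3.3. Adjustment was Benjamini-Hochberg's, and the threshold was 0.05. Arm ratios, log2((5p + 1)/(3p + 1)), were fitted over 67 hairpins, and neighbour ratios were tested by exact permutation. Alternatives were other filters, pseudocounts and scalings, a replicate block, libraries left out, and edgeR 4.0.16 and DESeq2 1.42.0 on recovered reads. Named miRNAs were the members, their opposite arms, miRNAs with a member's seed, the X-linked neighbours, the 3 most like each member by Pearson's r, and marker lists. A chi-square comparison of reads found no 2 libraries of a group alike enough to be one library deposited again (119 or more per degree of freedom). The procedures were tested on simulated data. Figures used Python 3.11.15 and matplotlib 3.10.9. RefSeq's assembly GRCr8 differs from rn6, so no coordinates are given.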

Additional observations from a re-analysis of the deposited data

Results flagged for a closer look

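In control 1, miR-322-5p (6.91 rpm, next control 3.43 rpm), miR-503-5p (12.3 rpm, next 3.30 rpm) and miR-450a-5p (251 rpm, next 99.3 rpm) lay far from the other controls. In EWH 4, miR-322-3p (9.43 rpm, next 5.27 rpm), miR-351-5p (43.7 rpm, next 28.0 rpm) and miR-450b-3p (5.27 rpm, next 3.41 rpm) lay far from the other EWH libraries. In EWH 6 the log2 ratio of miR-503-5p to miR-503-3p was −0.40, where the next EWH library was at −0.98. Chance marks about 1 in 20 groups in this way. Control 1 (12305 rpm) and EWH 4 (6913 rpm) were also the highest libraries of their groups in the endothelial list, and likewise in the leukocyte list (231 and 185 rpm). EWH 4 was the highest EWH library in the neuron and glia list (971 rpm), and control 1 the highest control in the brown fat list (1631 rpm). The part of these lists in the flagged values was not tested.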

How the results depend on the processing

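The number of family members called stayed at 0 in all 23 alternatives run, and that of family arm ratios at 0 in all 21. Over all tested miRNAs the count of 0 became 8 after quantile normalization, 1 without EWH 3 and 4 together, 1 without control 5 and 6 together, 40 with edgeR and 63 with DESeq2, and ran from 0 to 24 with a library left out (24 without EWH 2). The cause was not tested. Of 179 recomputed member differences, 166 kept their direction and side of the threshold, 13 turned in direction and none passed the threshold (smallest limma adjusted p = 0.073, Benjamini-Hochberg, for miR-15b-5p after quantile normalization). With a library left out, differences on the log2(rpm + 1) scale ran from −0.054 to 0.070 for miR-195-5p, −0.27 to 0.042 for miR-322-3p, −0.25 to 0.17 for miR-503-3p, −0.11 to 0.089 for miR-195-3p, −0.19 to 0.14 for miR-351-5p, −0.052 to 0.22 for miR-450b-3p and −0.016 to 0.56 for miR-450b-5p. They ran from −0.041 to 0.080 for the miR-15b arm ratio and −0.025 to 0.12 for that of miR-195. Median-of-ratios scaling, edgeR and DESeq2 gave 0.036, 0.034 and 0.029 for miR-195-5p and 0.0079, 0.017 and 0.0090 for miR-195-3p, and median-of-ratios scaling gave 0.0050 for miR-351-5p. MiR-450b-3p was at −0.058 after quantile normalization and −0.035 without EWH 3 and 4 together. The miR-15b arm ratio was at −0.00084 with a pseudocount of 5 and −0.026 without control 5 and 6 together, and that of miR-195 at −0.010 without EWH 3 and 4 together.

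A pseudocount of 5 rpm brought the differences of miR-15b-5p, miR-322-5p and miR-503-5p nearer 0, to −0.20, −0.14 and −0.29. With a library left out, the EWH minus control difference in the log2 ratio of miR-195-5p to miR-497-5p ranged from 0.18 (without EWH 2) to 0.33 (without EWH 4). A filter at 10 rpm removed both arms of miR-322 and miR-503 and miR-15b-5p, so these have no value there. Replicate numbers are shared between the groups. Same-numbered libraries correlated at −0.50 to 0.31 in their deviations, values that cannot decide whether the numbers pair them. With the replicate number as a block, 0 miRNAs were called, and the paired exact permutation of the miR-195-5p to miR-497-5p ratio (difference 0.26) gave Benjamini-Hochberg adjusted p = 0.234. Depth limits miR-15b-5p and both arms of miR-322 and miR-503, which rest on 35 to 303 reads per library.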
